A study of Mus musculus with 6 samples.

Results

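The Ms4a genes lie in a cluster on mouse chromosome 19, next to the long noncoding RNA AW112010. Cochlear RNA of young and old C57BL/6 mice was compared here for 9 genes: AW112010 and the 8 Ms4a genes Ms4a1, Ms4a4b, Ms4a4c, Ms4a6b, Ms4a6c, Ms4a6d, Ms4a7 and Ms4a8a. They were listed by name and position, with earlier results of these data known, as the Ms4a genes listed for this region together with their neighbour AW112010, and they are 9 of the 25419 genes and single transcripts in the table. The young group was 1 month old and the old group was 12 months old, with 3 samples per group, no other treatment named in the labels, and RNA of 3 mice mixed in each sample. The labels call the tissue cochlea, and the dissected part was the basilar membrane. Mixing leaves the spread between single mice unseen, and p-values here measure the spread between mixed samples. The unit is FPKM, fragments scaled to transcript length and sequencing depth, so that levels of different genes can be set side by side.

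MS4A proteins are membrane-spanning proteins found mostly on cells of the immune system. MS4A1 is CD20, a surface protein of B cells. Ms4a7, Ms4a6b, Ms4a6c and Ms4a6d are known from macrophages and microglia, Ms4a4c from monocytes and interferon-treated immune cells, Ms4a4b from T cells, and Ms4a8a from alternatively activated macrophages. AW112010 is induced in macrophages and T cells by interferon and by bacterial products. It is annotated as a long intergenic noncoding RNA, although a protein made from it has been described. The cochlea holds resident macrophages, and its sensory hair cells are lost with age in this strain.

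Depth was estimated at 12420000 to 15410000 fragments per sample. Of 12 cochlear genes, all were detected, and the connexin genes Gjb6 and Gjb2 had the highest means, at 655.9 and 395.8 FPKM over the 6 samples. The outer hair cell genes Slc26a5 and Ocm fell, from 5.19 to 7.68 FPKM in the young samples to 2.96 to 3.08 FPKM in the old samples and from 91.9 to 173.5 to 47.8 to 70.5 FPKM (limma adjusted p = 0.0186 and 0.0288). Otog, a gene of the acellular membranes of the inner ear, rose (log2 change 0.71, limma adjusted p = 0.0316), and the other 9 were not called. The part of these 3 genes in the results was not tested. A pair of samples stood apart from the rest of their groups. In young replicate 1, all 17 genes of a granulocyte and monocyte list were at their highest among the young samples, with a summed level of 473.7 FPKM against 15.7 and 34.6 FPKM in young replicates 2 and 3. So were 25 of 27 genes of an interferon list, 15 of 20 of a macrophage list, and 8 of 13 in each of a B cell and a T and NK cell list. Of all 19465 genes tested, 32.2% were. In old replicate 2, all 27 genes of the interferon list were at their highest among the old samples, whereas 29.6% of all genes tested were.

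5 of the 9 genes rose in the old cochlea, namely AW112010, Ms4a7, Ms4a6b, Ms4a6c and Ms4a6d, and 0 fell (limma on log2(FPKM + 0.1), adjusted p below 0.05 over 19465 genes). Of all genes tested, 5.65% were called higher and 3.81% were called lower in the old group. Summed over the 9 genes, the level ran from 12.4 to 18.4 FPKM in the young samples and from 41.1 to 84.0 FPKM in the old samples. Of the 84.0 FPKM, found in old replicate 2, 19.7 FPKM came from a 361-nt transcript of Ms4a4c. A mean of at least 0.1 FPKM over the 6 samples was required for the test, and 8 of the 9 genes passed. Ms4a1 did not pass, and Ms4a8a and Ms4a4b passed only through the group in which they were higher. In whole tissue, more cells of a type and more RNA per cell cannot be told apart. The median log2 change of the 8 tested genes was 1.78, and that of all genes tested was 0.0088. For 6 of the 9 genes every old sample lay above every young sample, as for 17.6% of all genes tested. For Ms4a8a every old sample lay below every young sample, on about 4, 10 and 5 fragments against 0, 2 and 0. The share of all genes with that order was not counted. Without old replicate 2, 0 of the 9 genes passed the adjusted threshold and 7 passed at an unadjusted p below 0.05 (limma), 6 of them higher in the old group. That fit with 5 samples called 0.237% of all genes higher, and its share of all genes at an unadjusted p below 0.05 was not counted. Without young replicate 1, 4 of the genes passed, and the call of Ms4a6d was lost, in a fit that called 2.9% of all genes higher.

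**Figure D1:**
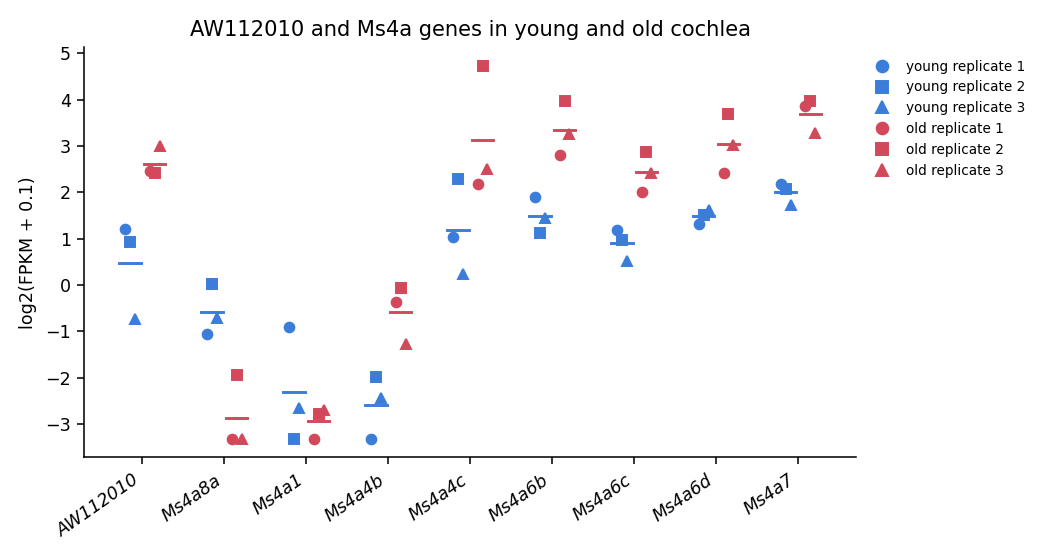
Level of the 9 genes in each sample as log2(FPKM + 0.1), with points for samples (blue, young; red, old) and bars for group means of 3 samples. The old samples of AW112010, Ms4a4b, Ms4a6b, Ms4a6c, Ms4a6d and Ms4a7 sit above all young samples, Ms4a4c overlaps, and Ms4a8a runs the other way.

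AW112010 rose 4.10-fold by its mean FPKM. The young samples had 2.20, 1.80 and 0.502 FPKM, and the old samples had 5.37, 5.23 and 7.88 FPKM. The groups did not overlap, and young replicate 3 was the lowest sample. The means were 1.50 ± 0.89 and 6.16 ± 1.49 FPKM (SD, n = 3), and the log2 change was 2.15 ± 0.49 (SE, limma adjusted p = 0.0387). These levels rest on few molecules: about 14, 12 and 3 fragments in the young samples and about 31, 41 and 50 in the old samples, as estimated from FPKM, transcript length and depth. Over the 17 alternative settings the log2 change ran from 1.56 without young replicate 3 to 2.52 without young replicate 1. Its direction was largely fixed in advance, as several settings leave the log2 values as they are. Without overlap, a left-out sample or another pseudocount cannot reverse it either. The adjusted call was lost in 8 of the settings, with limma adjusted p-values of up to 0.109. The table holds 1 of 2 annotated transcripts of the gene (ENSMUSG00000075010, GRCm38), ENSMUST00000099676 of 770 nt. It has 3 exons on the minus strand, at chr19:11050388-11050566, chr19:11048279-11048392 and chr19:11047617-11048093.

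Among the macrophage-associated genes, Ms4a7 (ENSMUSG00000024672, chr19:11321039-11336146, minus strand) had the highest mean level of the cluster in both age groups, although Ms4a4c was above it in replicate 2 of each group and Ms4a6b in old replicate 2. It had 4.44, 4.12 and 3.22 FPKM in the young samples and 14.5, 15.5 and 9.56 FPKM in the old samples. The lowest old sample was more than 2-fold above the highest young sample. The log2 change was 1.71 ± 0.21 (SE), with a limma adjusted p of 0.0115, the lowest of the 9 genes. Most of the difference was in 1 of its 4 transcripts. ENSMUST00000067532 (1334 nt) had 2.84, 3.53 and 1.63 FPKM in the young samples and 13.7, 12.8 and 6.64 FPKM in the old samples, without overlap. ENSMUST00000056035 (882 nt) had 1.60, 0.584 and 1.59 against 0.410, 2.37 and 2.92 FPKM, and its groups overlapped. At the transcript level, with p-values adjusted over all transcripts tested, the log2 changes were 2.01 (limma adjusted p = 0.0684) and 0.32 (limma adjusted p = 0.868).

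Ms4a6b, Ms4a6c and Ms4a6d, close relatives within the family, rose to similar degrees. Ms4a6b (ENSMUSG00000024677, chr19:11516512-11531256, plus strand) had 3.66, 2.06 and 2.63 FPKM in the young samples and 6.91, 15.6 and 9.47 FPKM in the old samples. Its log2 change was 1.85 ± 0.32 (SE, limma adjusted p = 0.0220). Both of its transcripts in the table, of 1687 and 2680 nt, were higher in every old sample than in every young sample. Ms4a6c (ENSMUSG00000079419, chr19:11469366-11482192, plus strand) had 2.18, 1.86 and 1.34 against 3.95, 7.27 and 5.25 FPKM. Its log2 change was 1.54 ± 0.27 (SE, limma adjusted p = 0.0225). The gene BE692007 overlaps it on the opposite strand, and the strand setting of the counting is not given in the sources used here. No fragment of BE692007 was listed in any young sample or in the third old sample, and old replicates 1 and 2 had 0.362 and 0.854 FPKM. Ms4a6d (ENSMUSG00000024679, chr19:11586604-11604849, minus strand) had 2.40, 2.75 and 2.98 against 5.23, 12.9 and 8.01 FPKM, and its log2 change was 1.56 ± 0.30 (SE), at a limma adjusted p of 0.0270. All 3 genes were lowest in replicate 1 and highest in replicate 2 within the old group. Without old replicate 2 the log2 changes were 1.54, 1.32 and 1.23, against 1.57 for Ms4a7, with limma adjusted p-values of 0.0656, 0.0781, 0.0681 and 0.0541 in this order.

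Ms4a4c (ENSMUSG00000024675, chr19:11404770-11427246, plus strand) did not pass the threshold as a gene. It had 1.96, 4.76 and 1.08 FPKM in the young samples and 4.43, 26.4 and 5.59 FPKM in the old samples. Young replicate 2 lay above old replicate 1, so that the groups overlapped, and old replicate 2 was far above every other sample. The log2 change was 1.95 ± 0.74 (SE, limma adjusted p = 0.140), and it was 1.16 without old replicate 2. The transcripts of the gene behaved differently. The 1723-nt transcript ENSMUST00000072729 had 0.224, 0.160 and 0.0594 FPKM in the young samples and 1.64, 6.46 and 1.87 FPKM in the old samples, which is about 4, 3 and 1 against 29, 146 and 36 fragments. Every old sample was more than 7-fold above every young sample. With p-values adjusted over all transcripts tested, its log2 change of 3.57 did not pass the threshold (limma adjusted p = 0.0659). The 361-nt transcript ENSMUST00000153546 had 1.74, 4.60 and 1.02 against 2.79, 19.7 and 3.72 FPKM, and it made up 63.0% to 96.6% of the FPKM of the gene. A 361-nt transcript is not much longer than the sequenced fragments, estimated at 260 to 300 nt, and its FPKM then depends strongly on the assumed fragment length. With transcripts under 500 nt left out of all gene sums, which was decided on after seeing the data, Ms4a4c had a log2 change of 3.59 (limma adjusted p = 0.0116). In that setting all 8 genes tested were called, 7 higher and Ms4a8a lower. Of all genes, 6.94% were called higher and 5.05% were called lower. Ms4a4b and Ms4a8a passed the filter only through the group in which they were higher, and their log2 changes were those of the main fit.

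**Figure D2:**
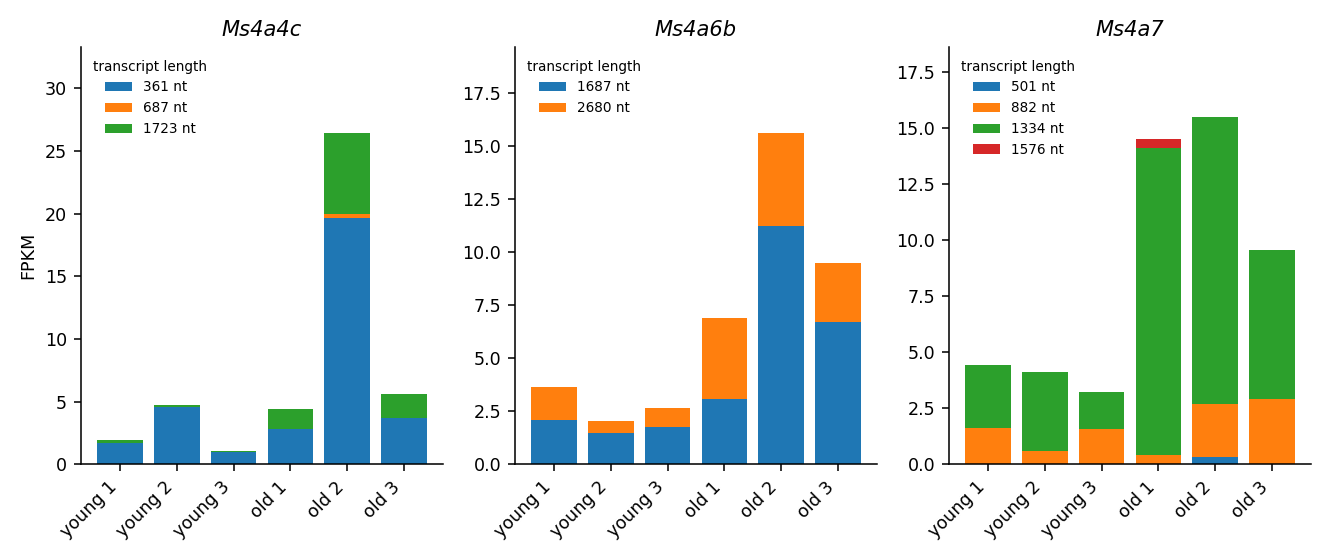
FPKM of Ms4a4c, Ms4a6b and Ms4a7 in each of the 6 samples, with bars stacked by transcript and coloured by transcript length. In Ms4a4c the 361-nt transcript holds most of the FPKM and the 1723-nt transcript is visible almost only in the old samples, and in Ms4a7 the 1334-nt transcript makes up most of the level in the old samples.

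Ms4a4b (ENSMUSG00000056290, chr19:11443553-11467055, plus strand), the T cell member, was low in all samples. It was listed at 0 in young replicate 1, with 0.151 and 0.0840 FPKM in young replicates 2 and 3, and 0.670, 0.861 and 0.310 FPKM in the old samples. The groups did not overlap. The log2 change of 2.01 ± 0.56 (SE) did not pass the threshold (limma adjusted p = 0.0655), and its size depended on the pseudocount, with 3.43 at 0.01 and 0.57 at 1. With transcripts under 500 nt left out, its limma adjusted p was 0.0494. Its coding sequence matched that of Ms4a4c at 91.7% of the aligned bases, and its FPKM may share fragments with that gene. No stretch of 150 bases, the read length, was shared between any of the 9 genes and an annotated transcript of another gene, and 50-base stretches shared with other genes made up at most 11.3% of a transcript.

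Ms4a8a (ENSMUSG00000024730, chr19:11067471-11081102, minus strand) was the only tested gene of the 8 whose level was lower in the old group. It had 0.380, 0.911 and 0.507 FPKM in the young samples, was listed at 0 in old replicates 1 and 3, and had 0.160 FPKM in old replicate 2. These values stand for about 4, 10 and 5 fragments against 0, 2 and 0. The ratio of old to young, from 2 and 19 fragments at the summed depth of each group, was 0.10 with an exact 95% interval of 0.0113 to 0.416, which covers counting error only. The log2 change was -2.28 ± 0.58 (SE), just outside the threshold (limma adjusted p = 0.0529). The size depended on the pseudocount, with -4.47 at 0.01 and -0.59 at 1. It passed in the quantile-normalized fit (limma adjusted p = 0.0440).

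Ms4a1 (ENSMUSG00000024673, chr19:11249675-11266241, minus strand), the B cell member, was close to the limit of detection. It had 0.432, 0 and 0.0575 FPKM in the young samples and 0, 0.0456 and 0.0531 FPKM in the old samples. Young replicate 1 held about 16 fragments, and no other sample held more than 2. The B cell gene Cd79a, a signalling subunit of the B cell receptor, had 0.515 FPKM in young replicate 1 and 0.190 to 0.273 FPKM in the other 5 samples. The part of B cells in the Ms4a1 value of this sample was not tested.

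Set in order, the young means were 3.93 ± 0.63 FPKM for Ms4a7, 2.79 ± 0.81 for Ms4a6b, 2.71 ± 0.29 for Ms4a6d, 2.60 ± 1.93 for Ms4a4c, 1.79 ± 0.42 for Ms4a6c and 1.50 ± 0.89 for AW112010 (SD, n = 3). Of the neighbours in this order, only Ms4a7 and Ms4a6b differed by more than the larger of their SDs. The old means were 13.2 ± 3.19 FPKM for Ms4a7, 12.1 ± 12.4 for Ms4a4c, 10.7 ± 4.46 for Ms4a6b, 8.71 ± 3.88 for Ms4a6d, 6.16 ± 1.49 for AW112010 and 5.49 ± 1.67 for Ms4a6c (SD, n = 3). Here no pair of neighbours differed by more than the larger of their SDs. The Ms4a4c means include 2.45 FPKM (young) and 8.72 FPKM (old) of its 361-nt transcript. That FPKM depends strongly on the assumed fragment length, and so do the place of Ms4a4c in these orders and the summed levels. Ms4a8a, Ms4a4b and Ms4a1 stayed below 1 FPKM in every sample. All 19 Ms4a genes of the table together had 17.2 ± 2.81 FPKM in the young and 55.1 ± 24.3 FPKM in the old samples (SD, n = 3).

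The other 11 Ms4a genes of the table were mostly silent. Of them, 4 passed the filter and 4 were at 0 in every sample. Ms4a4a, a gene of macrophages, rose from 1.10, 1.85 and 1.18 FPKM to 3.24, 3.11 and 3.26 FPKM, and its log2 change was 1.20 ± 0.23 (SE), at a limma adjusted p of 0.0268. Ms4a14 was low, with a log2 change of 1.20 (limma adjusted p = 0.224), and Ms4a4d had a log2 change of -0.11 (limma adjusted p = 0.913). Ms4a3, a gene of granulocyte and monocyte precursors, had 1.00 FPKM in young replicate 1 and at most 0.237 FPKM in the other samples.

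The genes around the cluster were compared to see whether the difference reached beyond the family. The 9 genes span chr19:11047612-11604849, and 67 other genes are annotated within 500 kb of either end, of which the table holds 39. Of the 24 that passed the filter, 0 were called higher, and 1 was called lower (limma). At an unadjusted p below 0.05, 8 were higher and 2 were lower, and of all genes tested 14.6% were higher and 13.1% were lower. Of the 8, Cd5, Cd6 and Gm8369 passed the filter only through the old group. The neighbour called lower was Zp1, an egg coat protein gene, which fell from 1.21, 1.29 and 1.44 FPKM to 0.380, 0.417 and 0.531 FPKM (log2 change -1.39, limma adjusted p = 0.0279). The median log2 change of the neighbours was 0.14. The lymphocyte genes Cd5 and Cd6 and the transporter gene Slc15a3, chosen after their values were seen, were higher in every old sample than in every young sample, with log2 changes of 1.64, 1.44 and 1.31 and limma adjusted p-values of 0.10, 0.139 and 0.0765. Cd5 was listed at 0 in all young samples.

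**Figure D3:**
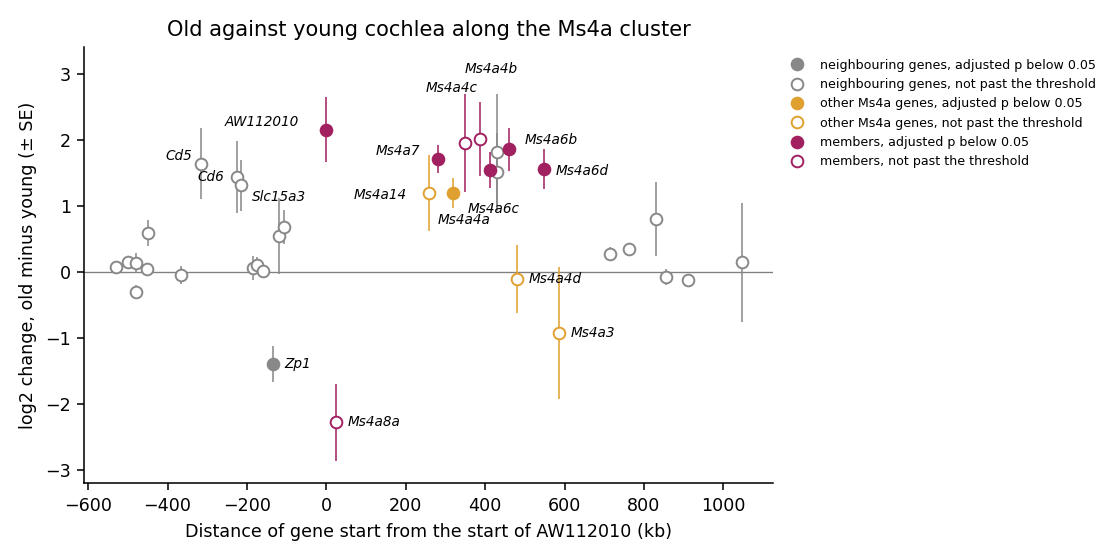
log2 change from young to old (y axis, ± SE) of the genes that passed the filter, against the distance in kb of the gene start from the start of AW112010 (x axis), with filled points for an adjusted p below 0.05. AW112010, Ms4a7, Ms4a4a, Ms4a6c, Ms4a6b and Ms4a6d are filled above 0, most genes outside the cluster lie near 0, and Zp1 is filled below 0.

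Upstream sequences were compared because AW112010 and several Ms4a genes rose in the same samples, and because genes induced by interferon often carry a short response element near their start. RefSeq promoter windows (GRCm38.p6), of 250 bases before and 50 bases after a gene start, were found for 7 of the 9 genes, in 8 windows. The core of the interferon-stimulated response element, GAAANNGAA, was searched on both strands, where N is any base. It was found in 4 of the 8 windows: at both starts of Ms4a7, in Ms4a6c and in Ms4a6b. It was found in 8.55% of 32817 promoter windows of the same length. The gamma-activated element TTCNNNGAA was in 0 of the 8 windows and 8.29% of all windows, and the PU.1 sequence GAGGAAGT was in 0 of the 8 windows and 3.20% of all windows. A base could count towards more than 1 of these motifs. A match of letters is a description and does not show that a factor binds there. The 250 bases upstream of the start are printed 5′ to 3′ for the called genes with a window. Only 1 of the windows of Ms4a7 is shown. Matches to GAAANNGAA on either strand are in capitals.
AW112010, chr19:11050567-11050816, minus strand: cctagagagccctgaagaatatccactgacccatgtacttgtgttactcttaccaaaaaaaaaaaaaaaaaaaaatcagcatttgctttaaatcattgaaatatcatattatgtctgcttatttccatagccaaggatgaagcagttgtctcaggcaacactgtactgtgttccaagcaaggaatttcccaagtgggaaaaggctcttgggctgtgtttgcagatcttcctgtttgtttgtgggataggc
Ms4a7, chr19:11336147-11336396, minus strand: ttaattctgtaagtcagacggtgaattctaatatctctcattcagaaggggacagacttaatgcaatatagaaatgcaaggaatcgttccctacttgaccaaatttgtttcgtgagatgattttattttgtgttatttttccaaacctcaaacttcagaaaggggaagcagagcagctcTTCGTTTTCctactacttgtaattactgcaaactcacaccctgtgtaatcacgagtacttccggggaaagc
Ms4a6c, chr19:11469118-11469367, plus strand: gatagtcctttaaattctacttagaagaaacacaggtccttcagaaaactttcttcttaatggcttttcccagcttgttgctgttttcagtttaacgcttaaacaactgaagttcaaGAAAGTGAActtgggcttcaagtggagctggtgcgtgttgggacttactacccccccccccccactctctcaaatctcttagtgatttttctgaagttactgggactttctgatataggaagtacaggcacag
Ms4a6b, chr19:11518309-11518558, plus strand: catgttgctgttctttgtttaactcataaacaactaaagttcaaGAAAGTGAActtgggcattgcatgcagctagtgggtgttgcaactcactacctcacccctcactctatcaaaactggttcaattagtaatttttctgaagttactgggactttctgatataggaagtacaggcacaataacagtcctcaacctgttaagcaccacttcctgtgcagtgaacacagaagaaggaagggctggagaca

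The match in the printed window of Ms4a7 lies on the strand opposite to the gene, at base -71 counted from the start. The window of its other start, not printed, holds GAAAAGGAA on the strand of the gene, at base -148. Those of Ms4a6c and Ms4a6b are both GAAAGTGAA, at bases -133 and -206. After alignment, 149 of the 250 upstream bases of these 2 genes were identical, and their coding sequences were identical at 85.4% of the aligned bases. The start used for the AW112010 window is the first base of exon 1 of the transcript above, and the window holds none of the 3 motifs. Ms4a4b and Ms4a4c had the most similar upstream sequences among the 8 windows when counted over the window, with 182 of 250 bases identical. By identity of the aligned bases alone, Ms4a6c and Ms4a6b were closer, at 85.1% against 78.4%. The windows of Ms4a4c and Ms4a6b lie at the starts of their 1723-nt and 1687-nt transcripts. The starts of the 361-nt transcript of Ms4a4c (chr19:11404770) and the 2680-nt transcript of Ms4a6b (chr19:11516512) were outside the windows searched. The sequences of Ms4a4c and Ms4a4b are shown for this resemblance and hold none of the 3 motifs.
Ms4a4c, chr19:11407411-11407660, plus strand: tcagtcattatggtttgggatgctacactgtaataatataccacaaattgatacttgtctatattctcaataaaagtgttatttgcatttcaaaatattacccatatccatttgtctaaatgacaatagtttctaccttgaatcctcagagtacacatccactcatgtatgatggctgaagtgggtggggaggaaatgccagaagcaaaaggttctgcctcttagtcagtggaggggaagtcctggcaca
Ms4a4b, chr19:11443308-11443557, plus strand: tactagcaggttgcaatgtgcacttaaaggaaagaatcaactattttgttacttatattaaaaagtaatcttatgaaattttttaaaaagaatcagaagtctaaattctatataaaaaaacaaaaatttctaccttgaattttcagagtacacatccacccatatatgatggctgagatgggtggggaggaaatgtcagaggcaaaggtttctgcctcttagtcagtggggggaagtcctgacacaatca

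To see which immune cell genes moved beside the cluster, lists of marker genes were counted in the same fit. Of 20 macrophage genes, 15 rose and 0 fell, with a median log2 change of 1.67. Lyz2, the macrophage lysozyme gene, had 61.2 to 86.9 FPKM in the young samples and 399.6 to 510.8 FPKM in the old samples (log2 change 2.64, limma adjusted p = 0.00163). Ctss, a lysosomal protease gene, had 23.2 to 33.5 against 102.0 to 124.7 FPKM. Csf1r, the receptor for the growth factor of macrophages, had 6.78 to 11.1 against 18.7 to 22.1 FPKM (log2 change 1.24, limma adjusted p = 0.0145). The summed level of the list was 207.7 to 317.3 FPKM in the young samples and 950.1 to 1029 FPKM in the old samples. Without old replicate 2, 3 of the 20 genes were called.

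Of 27 interferon-response genes in the table, 21 rose and 0 fell, with a median log2 change of 1.86. Bst2, an antiviral membrane protein gene, had 39.2 to 70.2 FPKM in the young samples and 150.0, 381.5 and 198.9 FPKM in the old samples (log2 change 2.08, limma adjusted p = 0.0205). Ifit3, an antiviral effector gene, had 17.5 to 43.9 FPKM against 103.2, 279.9 and 141.1 FPKM. The summed level ran from 195.2 to 333.5 FPKM in the young and from 618.1 to 1592 FPKM in the old samples. Without old replicate 2, 0 of the 27 were called and 26 had an unadjusted p below 0.05 (limma). The share of all genes at that p in this fit was not counted. The part of these interferon genes in the values of the Ms4a genes was not tested.

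Of 13 T and NK cell genes tested, 4 rose and 0 fell, with a median log2 change of 1.60. Cd2, an adhesion receptor gene of these cells, had 1.09 to 1.67 FPKM in the young samples and 3.80 to 4.07 FPKM in the old samples (log2 change 1.46, limma adjusted p = 0.0132), and Cd4, the co-receptor of helper T cells that some myeloid cells also carry, had 0.307 to 0.960 against 2.57 to 3.36 FPKM. The others were Cd3g and Nkg7, named because the count is small. Cd3e, a subunit of the T cell receptor complex, had 0.0629 to 0.140 FPKM against 0.194 to 0.626 FPKM (limma adjusted p = 0.136). Without old replicate 2, 0 of 12 T and NK cell genes were called and 6 had an unadjusted p below 0.05 (limma). The share of all genes at that p in this fit was not counted. The summed level of this list was 2.34 to 3.99 FPKM in the young and 12.9 to 13.8 FPKM in the old samples.

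Of 13 B cell genes tested, 1 rose, with a median log2 change of -0.28. It was Cd22, a B cell inhibitory receptor that microglia also express. The most abundant of the list were Cd72, at 6.67 to 7.40 FPKM in the young samples and 8.03 to 13.9 FPKM in the old samples, and Vpreb3, a gene of early B cells, at 0.328 to 2.48 against 0 to 0.186 FPKM. Neither passed the threshold (limma adjusted p = 0.153 and 0.102). The summed level was 9.38 to 14.3 FPKM in the young and 10.0 to 17.3 FPKM in the old samples. Of 17 granulocyte and monocyte genes, 0 were called and 0 had an unadjusted p below 0.05 (limma). The calgranulin genes S100a8 and S100a9 had 227.9 and 158.6 FPKM in young replicate 1 and at most 36.4 and 27.4 FPKM in any other sample. The inflammatory monocyte genes Ly6c2, Plac8 and Ccr2, chosen after their values were seen, had 19.6, 17.8 and 3.83 FPKM in old replicate 2. In any other sample these genes had at most 2.97, 4.81 and 0.996 FPKM. The granulocyte and monocyte list as a whole did not share this pattern. Among the old samples, 6 of its 17 genes were highest in replicate 2, 10 in replicate 1 and 1 in replicate 3. Of 8 mast cell genes, only Hdc, the histamine-forming enzyme gene, passed the filter, and it was not called (log2 change -1.04, limma adjusted p = 0.0981).

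The level of each gene was then set against the macrophage genes of the same sample, as its log2 level minus the mean log2 level of the 20 macrophage genes. That mean was 1.45 higher in the old than in the young samples. For 7 of the 8 genes tested, young and old samples overlapped on this scale. The old minus young difference was 0.09 for Ms4a6c, 0.11 for Ms4a6d, 0.25 for Ms4a7, 0.40 for Ms4a6b, 0.50 for Ms4a4c, 0.56 for Ms4a4b and 0.70 for AW112010. Exact two-sided permutation p-values were 0.3 to 0.8 for these genes, where 0.1 is the smallest that 3 samples against 3 can give. Ms4a8a had a difference of -3.73 without overlap (exact permutation p = 0.1). Of all 19465 genes, 83.3% had every old sample below every young sample on this scale, and 0.539% had every old sample above, so that most genes shared the position of Ms4a8a.

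**Figure D4:**
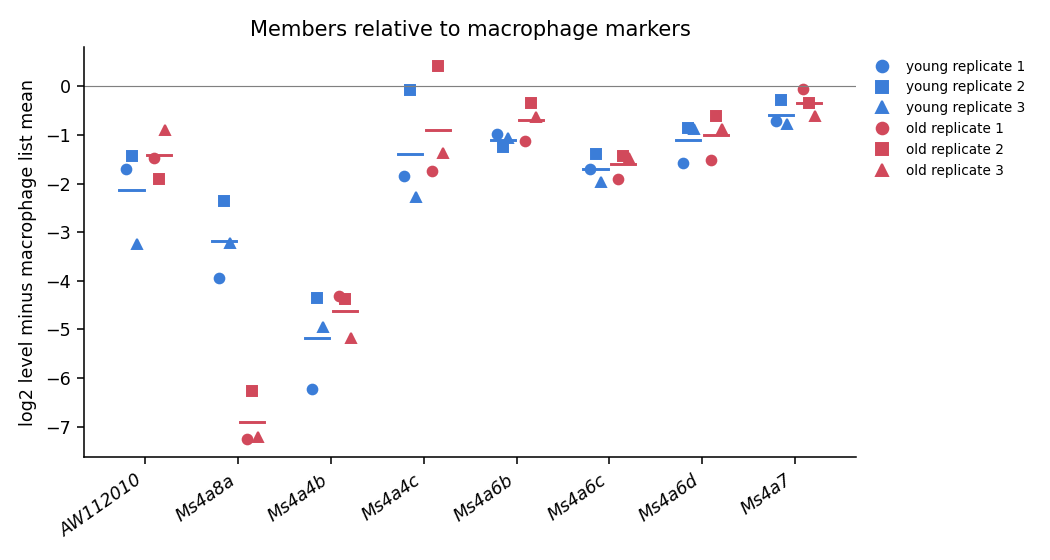
log2(FPKM + 0.1) of each tested gene minus the mean of the 20 macrophage genes in the same sample (y axis), with points for samples (blue, young; red, old) and bars for means of 3 samples. Young and old points overlap for every gene except Ms4a8a, which has a difference of -3.73.

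Old replicate 2 was the highest old sample for 7 of the 8 genes tested, for 14 of the 20 macrophage genes and for 27 of the 27 interferon genes. It was so for 29.6% of all genes tested. For Ms4a8a this rests on about 2 fragments against 0 in the other old samples, and Ms4a7 had 15.5 FPKM there against 14.5 FPKM in old replicate 1. AW112010 was the exception, with its highest level in old replicate 3 and close levels in old replicates 1 and 2. In the young group AW112010 was lowest in young replicate 3, at 2.27 below its own mean on the log2 scale.

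**Figure D5:**
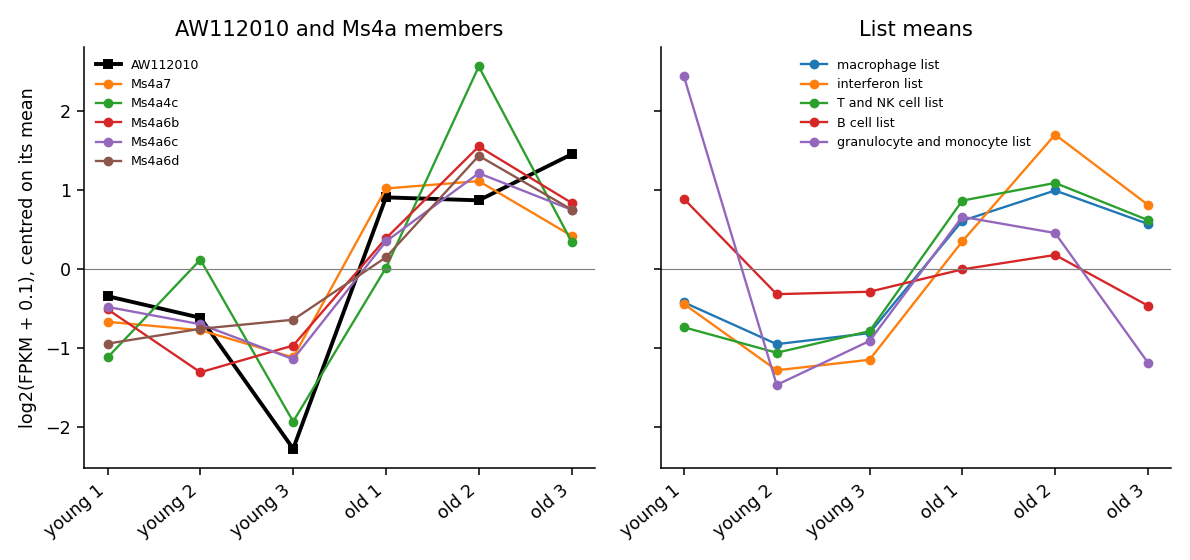
log2(FPKM + 0.1) in each sample, centred on the mean over the 6 samples, for AW112010 and 5 Ms4a genes (left) and for the mean of each marker list (right). Ms4a4c, Ms4a6b, Ms4a6c and Ms4a6d peak in old replicate 2 as the interferon list does, AW112010 peaks in old replicate 3, and the granulocyte and monocyte list peaks in young replicate 1.

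Likeness to AW112010 was measured as the root mean square difference between the centred log2 levels over the 6 samples, among 14984 genes with a mean of at least 1 FPKM. The nearest gene was Siglech, a lectin gene of plasmacytoid dendritic cells and microglia, at a distance of 0.302. It had 2.05, 1.32 and 0.661 FPKM in the young samples and 4.54, 5.77 and 5.43 FPKM in the old samples. LNC_000060, a transcript assembled by the authors, and the genes Npcd, Rab26 and Gm4070 followed, at 0.425, 0.464, 0.472 and 0.480. Of the Ms4a genes, Ms4a6c ranked 35, Ms4a7 64, Ms4a6b 143, Ms4a6d 315 and Ms4a4c 874. This ranking is a description over 6 samples that share an age difference.

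Arid5b encodes a DNA-binding protein that the study examined together with AW112010. It had 10.5, 9.05 and 8.85 FPKM in the young samples and 12.2, 12.6 and 11.8 FPKM in the old samples. The groups did not overlap, and the log2 change of 0.37 ± 0.10 (SE) did not pass the threshold (limma adjusted p = 0.0663). By other measures, RT-qPCR for RNA and Western blot for protein, the paper reports higher Arid5b in the aged cochlea.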

How the data were processed

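RNA of the cochlea was sequenced by the authors from directional libraries. The submitters' processing notes name CASAVA 1.8, TopHat2 2.0.9, Cufflinks 2.1.1, Cuffdiff 2.1.1 and GRCm38, and the annotation release is not given in the sources used here. The deposited values are FPKM per transcript and sample, and they were not scaled further. The submitters' own test results were not used.

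Of 55679 Ensembl transcripts, 55275 were matched to GENCODE M21 (GRCm38) and summed per gene, and 404 were left out. Samples were grouped by their age labels, and nothing in the labels ties samples of equal number. Genes with a mean of at least 0.1 FPKM were tested on log2(FPKM + 0.1) with the moderated linear model of limma 3.58.1 and a variance trend, under R 4.3.3, and fold changes on this scale understate those of low genes. Benjamini-Hochberg adjustment ran over all 19465 genes, and an adjusted p below 0.05 was called. The paper's test, Cuffdiff, needs the reads. Levels relative to macrophage genes were compared by an exact permutation test. Simulated tables with planted changes were used to test the code.

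The named genes are the 9 genes, other Ms4a genes and neighbours past the threshold, the 2 most abundant genes of each list, Cd79a, Cd3e, Csf1r, Arid5b and the 5 genes most like AW112010. The value of 1 marker gene of this rule is not reported here. BE692007 is named for its overlap with Ms4a6c, other Ms4a genes that passed the filter are given with their values, and further genes were named after their values were seen. Members and lists were chosen with earlier results of these data known. Same-numbered young and old samples deviated together with correlations of 0.023, -0.0406 and 0.0109.

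Depth was taken from the spacing of low FPKM values, of which 93.5% to 95.2% lay within 0.1 of a whole fragment. Fragments were estimated only for transcripts of at least 500 nt. Python 3.11.15, numpy 2.4.6, pandas 2.3.3, Biopython 1.88 and matplotlib 3.10.9 were used for tables, sequences and plots. Alternatives were pseudocounts of 0.01 and 1, no filter or a mean of at least 1 FPKM, median-of-ratios or quantile scaling, no variance trend, a replicate block, each sample left out, the most abundant transcript, and unadjusted p. Gene sums without transcripts under 500 nt were added after the values were seen.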

Additional observations from a re-analysis of the deposited data

How the results depend on the processing

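No tested member of the cluster changed direction under any alternative, which is weak evidence of stability. Several alternatives leave the log2 values as they are. For members whose groups did not overlap, a left-out sample or another pseudocount could not reverse the direction. The count of 5 members past the threshold was 1 without a variance trend (1.46% of all genes called higher), 0 for the most abundant transcript of each gene (7 at an unadjusted p below 0.05, limma, and 0.816% of all genes called higher), 8 at an unadjusted p (14.6% of all genes higher and 13.1% lower), 8 without transcripts under 500 nt, and 0 to 5 with a sample left out (0 without old replicate 2, 1 without old replicate 3 and 1 without young replicate 2). Calls over all genes fell with them, to 0.237% higher without old replicate 2, 1.32% without old replicate 3 and 1.24% without young replicate 2. Without transcripts under 500 nt, 6.94% of all genes were called higher and 5.05% lower. The replicate block gave 4 (2.26% of all genes called higher), with Ms4a4c called (limma adjusted p = 0.0397) and AW112010 and Ms4a6b lost (0.0724 and 0.0557), and the numbers were not shown to pair the samples. AW112010 had log2 changes of 1.56 to 2.52 with a sample left out.

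For the other Ms4a genes the count of 1 became 0 without a trend, with the replicate block and for the most abundant transcript, and was 0 to 1 with a sample left out. For the neighbours the count of 1 became 2 without a filter and without a trend, 0 at a mean of at least 1 FPKM, with the replicate block, for the most abundant transcript and with any sample left out, and 10 at an unadjusted p. The macrophage count of 15 became 7 without a trend, 8 for the most abundant transcript, and 3 to 14 with a sample left out (3 without old replicate 2 and 8 without old replicate 3). The B cell count of 1 became 0 without a filter, at a mean of at least 1 FPKM, after quantile normalization, without a trend, with the replicate block, without short transcripts, for the most abundant transcript and with any sample left out, and 3 at an unadjusted p. The T and NK cell count of 4 became 2 at a mean of at least 1 FPKM, without a trend and with the replicate block, 0 for the most abundant transcript (4 at an unadjusted p, limma), 12 at an unadjusted p, and 0 to 3 with a sample left out (0 without old replicate 2 or 3, 1 without old replicate 1 and 2 without young replicate 2). The mast cell count of 0 became 1 at an unadjusted p. The interferon count of 21 became 0 without a trend (27 at an unadjusted p, limma), 4 with the replicate block, 1 for the most abundant transcript, and 0 to 17 with a sample left out (0 without old replicate 2 or 3 and 1 without young replicate 2). The number of members that did not overlap relative to the macrophage genes was 1, lower in the old group. It became 2 at a pseudocount of 1, both lower, and was 1 to 3 with a sample left out. Without young replicate 2, 2 were higher and 1 was lower in the old group. Without old replicate 1, 1 was higher and 1 was lower. Shares of all genes were not counted for these alternatives. The cause of these shifts was not tested. At an unadjusted p, shares of all genes were counted for the main fit only. With 3 mixed samples per group and few fragments for AW112010, Ms4a8a and Ms4a1, smaller differences could not be detected.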
